A study of Homo sapiens with 2 samples.

Results

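The 10 genes described here encode the proteins that coat telomeres, the core of telomerase, and the ATRX-DAXX chromatin remodeller. They are TERF1, TERF2, TERF2IP, POT1, TINF2 and ACD (shelterin), TERT and TERC (telomerase), and ATRX and DAXX. They were chosen by name out of 59675 RefSeq genes on the nuclear chromosomes, a rule that uses no measured value, although earlier results of these data were known when it was set. Accessible sites were read from DNase-seq of Saos-2 and U2OS, 2 established human osteosarcoma cell lines with 1 library each; no treatment is named for either. In DNase-seq, the enzyme cuts DNA that nucleosomes do not cover, and stretches rich in cuts are called as hotspots. Each hotspot carries a value from the authors, taken from its range to be a −log10 and here called its significance. The Saos-2 list held 51556 hotspots and the U2OS list 63388, with median significances of 4.05 and 4.60. The read depth behind the lists is unknown, and a deeper library yields more hotspots and higher significances. With 1 library per line there is no replicate error and no test of any difference between the lines.

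Telomeres are repeats at chromosome ends that shorten with each division unless they are extended. Shelterin binds these repeats and keeps the ends from being treated as DNA breaks: TERF1 and TERF2 bind the double-stranded repeat, POT1 binds the single-stranded overhang, and TINF2, ACD and TERF2IP connect or accompany them. Most cancers extend telomeres with telomerase, a reverse transcriptase (TERT) that copies an RNA template (TERC). Saos-2 and U2OS are widely used models of the alternative route, in which telomeres are lengthened by recombination without telomerase (ALT). Loss of ATRX or DAXX, which together deposit histone H3.3 at repeats, is common in ALT cells, and both lines are reported to lack ATRX protein. An accessible promoter does not show that a gene is transcribed, and neither RNA, protein nor DNA copy number was measured here.

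The RefSeq promoter table (GRCh38.p14, the same primary assembly as the hg38 of the hotspots) held 5 of the 10 genes, each as a window from 250 bp before to 50 bp after a start. The windows below are written 5′ to 3′ on the strand of the gene, with matches to the searched motifs in capitals. TERT is shown as the gene without a promoter hotspot in either line, ACD as the gene with one in U2OS alone, and POT1, TERF2IP and TINF2 as genes with one in both. The window of TERT is chr5:1295019-1295318 (minus strand), that of ACD chr16:67660211-67660510 (minus), that of POT1 chr7:124929776-124930075 (minus) and that of TERF2IP chr16:75647523-75647822 (plus). TINF2 has 2 listed starts, and the window of the inner one, chr14:24242574-24242873 (minus), is printed.
TERT: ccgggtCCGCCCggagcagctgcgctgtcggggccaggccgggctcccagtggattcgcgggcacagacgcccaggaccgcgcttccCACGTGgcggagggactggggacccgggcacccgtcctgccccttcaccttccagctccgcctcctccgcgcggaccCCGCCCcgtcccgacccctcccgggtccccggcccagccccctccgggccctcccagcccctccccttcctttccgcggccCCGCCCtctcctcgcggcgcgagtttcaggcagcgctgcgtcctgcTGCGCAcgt
ACD: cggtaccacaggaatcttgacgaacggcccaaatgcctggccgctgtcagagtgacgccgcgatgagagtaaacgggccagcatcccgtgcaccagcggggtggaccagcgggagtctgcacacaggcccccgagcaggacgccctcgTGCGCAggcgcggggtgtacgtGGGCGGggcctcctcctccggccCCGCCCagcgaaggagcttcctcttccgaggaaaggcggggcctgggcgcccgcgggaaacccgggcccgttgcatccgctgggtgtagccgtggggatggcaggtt
POT1: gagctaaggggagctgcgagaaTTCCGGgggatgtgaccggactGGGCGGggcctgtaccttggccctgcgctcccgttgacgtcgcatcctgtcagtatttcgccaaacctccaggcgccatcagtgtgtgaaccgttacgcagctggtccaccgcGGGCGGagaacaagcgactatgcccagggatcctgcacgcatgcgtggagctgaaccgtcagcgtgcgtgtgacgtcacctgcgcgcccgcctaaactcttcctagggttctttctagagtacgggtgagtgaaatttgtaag
TERF2IP: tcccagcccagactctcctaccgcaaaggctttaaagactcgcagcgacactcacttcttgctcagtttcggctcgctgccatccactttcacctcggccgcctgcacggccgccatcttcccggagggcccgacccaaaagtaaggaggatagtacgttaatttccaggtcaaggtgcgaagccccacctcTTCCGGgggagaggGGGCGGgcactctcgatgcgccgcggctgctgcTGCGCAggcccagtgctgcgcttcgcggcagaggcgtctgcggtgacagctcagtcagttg
TINF2: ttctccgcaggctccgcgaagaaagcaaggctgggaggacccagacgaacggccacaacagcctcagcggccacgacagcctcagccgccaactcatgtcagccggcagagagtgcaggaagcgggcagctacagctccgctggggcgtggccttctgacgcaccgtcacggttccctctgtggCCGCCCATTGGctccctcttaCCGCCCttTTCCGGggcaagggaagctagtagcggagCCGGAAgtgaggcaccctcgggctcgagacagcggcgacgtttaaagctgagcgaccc

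The motifs, searched on both strands, were GGGCGG (the GC box bound by SP1 factors), CACGTG (the E-box bound by MYC and its relatives), CCGGAA (an ETS core), TGCGCA (the inner part of the NRF1 site), CCAAT (the CCAAT box), TATAAA (the TATA box) and TTAGGG (the repeat unit of telomeres themselves). No matches overlapped one another in these windows. The TERT window held 3 GC boxes, 1 E-box and 1 NRF1 part. The ACD and POT1 windows held 2 GC boxes each, with 1 NRF1 part in ACD and 1 ETS core in POT1. TERF2IP had 1 GC box, 1 ETS core and 1 NRF1 part, and TINF2 had 2 GC boxes, 2 ETS cores and 1 CCAAT box. None of the printed windows held the TATA box or the telomere unit. Among 34943 RefSeq windows of the same length, 44.9% held a GC box, 7.23% the E-box, 17.2% the ETS core, 8.19% the NRF1 part, 34.6% the CCAAT box, 11.6% the TATA box and 9.04% the telomere unit. A match of letters is a description and not a bound site.

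The windows also differed in base composition. TERT was the richest in G and C at 77.3%, above 94.2% of all RefSeq windows. ACD followed at 70.0%, TINF2 at 65.3%, TERF2IP at 63.0% and POT1 at 60.3%. The ratio of observed to expected CpG lay between 0.81 and 0.96 in the printed windows, with TINF2 lowest and POT1 highest. Among protein-coding windows in the same G+C decile as TERT (76.0 to 94.0%), 42.2% had a Saos-2 hotspot within 1 kb of the start, 50.3% had a U2OS hotspot, and 42.1% had none in either line. In the decile that holds ACD (68.7 to 72.0%), the shares were 61.1%, 67.8% and 27.1%.

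Promoter hotspots were then counted for all 10 genes. A promoter hotspot overlaps the 1 kb on either side of a RefSeq start, or, for the 5 genes with no start in the table (TERF1, TERF2, TERC, ATRX and DAXX), the 1 kb on either side of both gene ends. By this rule 7 of the 10 genes were called in both lines, 1 (ACD) in U2OS alone, 0 in Saos-2 alone and 2 (TERT and TERC) in neither. Over all 15841 protein-coding genes with a start in the table, 46.3% were called in both, 9.54% in U2OS alone, 4.79% in Saos-2 alone and 39.3% in neither. For the rule of both ends, over 20033 protein-coding genes, these shares were 42.7%, 10.5%, 5.07% and 41.7%. Shelterin promoters were called for 6 of 6 genes in U2OS and 5 of 6 in Saos-2. The shares of all protein-coding genes were 55.9% and 51.1% by starts, and 53.2% and 47.8% by ends. The ATRX-DAXX pair was called in both lines, and the telomerase pair in neither. The plot of promoter significance shows these groups.

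**Figure D1:**
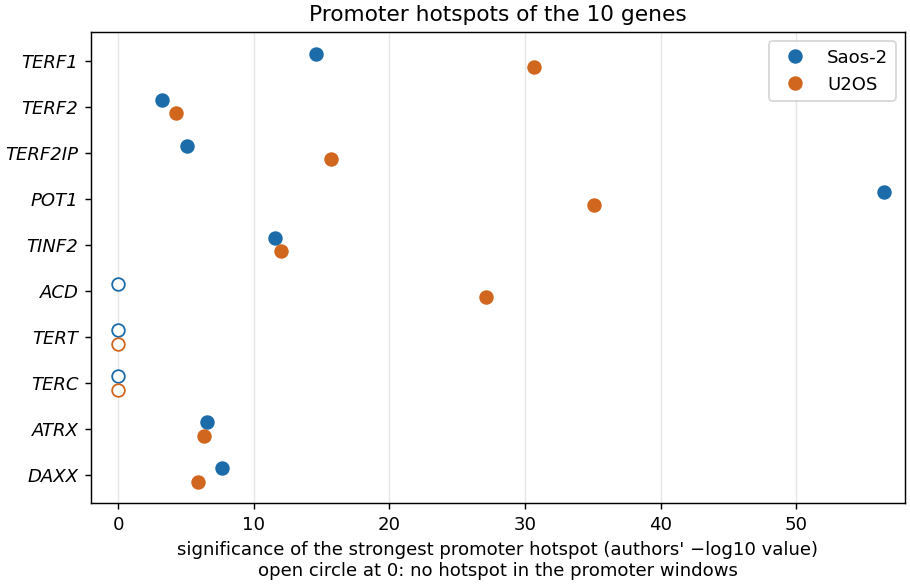
Significance (the authors' value, read as −log10, horizontal axis) of the strongest promoter hotspot of each gene in Saos-2 (blue) and U2OS (orange). Open circles at 0 mark genes without a promoter hotspot in that line. POT1 reached 56.5 in Saos-2 and 35.1 in U2OS, while TERT and TERC had none in either line and ACD none in Saos-2. For genes without a listed start, the strongest hotspot at either gene end is drawn. The 2 DAXX values belong to different sites, the 5′ end in Saos-2 (7.69) and the lower end at the ZBTB22 start in U2OS (5.87).

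Shelterin is described first, beginning with the proteins that bind the repeats. TERF1 (gene 7013, chromosome 8, 73008864 to 73048123) negatively regulates telomere length. Its hotspot lay over the lower-coordinate end, which is the 5′ end of the gene. In Saos-2 this site measured 395 bp and had a significance of 14.6; in U2OS it measured 446 bp and had 30.7. Because the lists differ in length and median, significances were also ranked among all promoter hotspots of the same line (10976 in Saos-2 and 12252 in U2OS). TERF1 lay above 84.4% of them in Saos-2 and above 94.3% in U2OS, so it was a strong promoter site in both. Within TERF1, Saos-2 also had a site from 73011699 to 73012011 (3.62) that U2OS lacked. The hotspots about 42 kb beyond the upper end lay in SBSPON and overlapped each other, at 8.69 in Saos-2 and 6.88 in U2OS.

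TERF2 (gene 7014, chromosome 16, 69355567 to 69386007) protects ends from fusion and shapes the telomeric loop. Its promoter hotspot was among the weaker ones: 229 bp and 3.23 in Saos-2, and 241 bp and 4.25 in U2OS, above 30.0% and 36.3% of promoter hotspots. The 2 hotspots covered nearly the same bases, 69385871 to 69386099 and 69385883 to 69386123, across the upper-coordinate end, which is the 5′ end. Both fell out of the lists when only the top 50% of each was kept. Stronger sites flanked TERF2 in both lines. The start shared by COG8 and NIP7 had 8.39 in Saos-2 and 27.7 in U2OS, and the CYB5B start had 14.5 and 32.4. Of the 6 hotspots of each line within 50 kb of TERF2, 5 were overlapped by the other line.

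POT1 (gene 25913, chromosome 7, 124822386 to 124929825) caps the single-stranded overhang. It had the strongest promoter hotspot of the 10 genes in both lines. In Saos-2 it spanned 603 bp with a significance of 56.5, above 99.8% of Saos-2 promoter hotspots. In U2OS it was 703 bp wide with 35.1, above 96.0%. All 300 bases of the POT1 window printed above lay inside the hotspot in both lines. The same hotspot lies within 1 kb of the start of the antisense gene POT1-AS1, so the site cannot be assigned to POT1 alone. Apart from it each line had 1 hotspot within 50 kb, and these did not overlap: 124856436 to 124856619 inside POT1 in Saos-2 (4.02), and 124792054 to 124792333 beyond its 3′ end in U2OS (4.51).

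TERF2IP (gene 54386, chromosome 16, 75647773 to 75657432) encodes RAP1, the partner of TERF2. At its start Saos-2 had a hotspot of 283 bp (5.05) and U2OS one of 358 bp (15.7). In rank it moved from above 47.7% of promoter hotspots in Saos-2 to above 80.0% in U2OS. The hotspot also lies within 1 kb of the start of KARS1, which faces away from TERF2IP, so the site cannot be assigned to TERF2IP alone. Of the 300 bases of the TERF2IP window, 207 were covered in Saos-2 and 268 in U2OS. U2OS had an additional hotspot of 173 bp just inside the gene (75648576 to 75648748, 2.99), which was not overlapped. Saos-2 had an additional site at 75682419 to 75682718 (8.51), 25.0 kb beyond the gene, likewise without overlap.

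TINF2 (gene 26277, chromosome 14, 24239640 to 24242674) ties TERF1, TERF2 and ACD together. Its promoter was open over a similar stretch in both lines, which Saos-2 divided into 3 hotspots (2.94, 11.6 and 4.25) and U2OS into 2 (12.0 and 6.37). Covered bases within its promoter window were 807 in Saos-2 and 877 in U2OS. In the inner window printed above, 300 of 300 bases were covered in Saos-2 and 284 in U2OS. TINF2 lies among closely spaced genes, and its surroundings had the most hotspots of the 10 genes, with 10 for Saos-2 against 9 for U2OS. They included the CHMP4A start, at 24.9 in Saos-2 and at 4.19 and 21.0 for the 2 U2OS hotspots it overlapped. The pair of Saos-2 hotspots at the RABGGTA start (3.25 and 3.38) had no U2OS overlap.

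ACD (gene 65057, chromosome 16, 67657512 to 67660260) encodes TPP1, which joins POT1 to TINF2 and recruits telomerase to the chromosome end. With windows of 1 kb it was the only one of the 10 genes called in 1 line alone. U2OS had 2 hotspots there. The first, 67660151 to 67660490, spanned 340 bp with a significance of 11.3; it lay over the start and covered 280 of the 300 bases printed above. The second, 67660669 to 67661007, was 339 bp wide with 27.1 and began 409 bp upstream. It covers position 67660960, the end of the divergent neighbour PARD6A that faces ACD, so it cannot be assigned to ACD alone. Saos-2 had no hotspot at either place. Its nearest hotspots were 97.7 kb away at the CTCF start and 59.0 kb away at the GFOD2 start, and both of those were overlapped by U2OS hotspots.

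The difference at ACD extended to its neighbours. Within 50 kb of ACD, U2OS had 4 hotspots and Saos-2 none, and the other 2 in U2OS lay at the ENKD1 and C16orf86 starts (3.51) and within C16orf86 (9.02). An empty surrounding of this kind in Saos-2, with at least 1 hotspot in U2OS, occurred for 6.52% of protein-coding genes; the reverse occurred for 1.73%. The stronger U2OS site near the ACD start, which also covers the facing end of PARD6A, stood out more by its significance. The hotspot over the ACD start itself had 11.3, and no share was computed for hotspots of at least that significance. Over all U2OS promoter hotspots, 70.6% had a Saos-2 overlap. Of 943 U2OS promoter hotspots at least as significant as the upstream site (27.1), 6 had no Saos-2 overlap, that site included. This was 0.636% (95% Wilson interval 0.292 to 1.38%, counting error only). This comparison was made after the values at ACD were seen. ACD stayed in the U2OS-only class under every alternative run, including equal list lengths and the top 50% of each list. These runs could not have changed its class. The nearest Saos-2 hotspot lay 59.0 kb from the start, and both U2OS sites lie above the cut-offs of 2.31 and 4.6. None of the runs addresses the unknown read depth of Saos-2. The DNA content of this stretch was not measured. The map of the surroundings of ACD shows that hotspots of both lines resumed on either side.

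**Figure D2:**
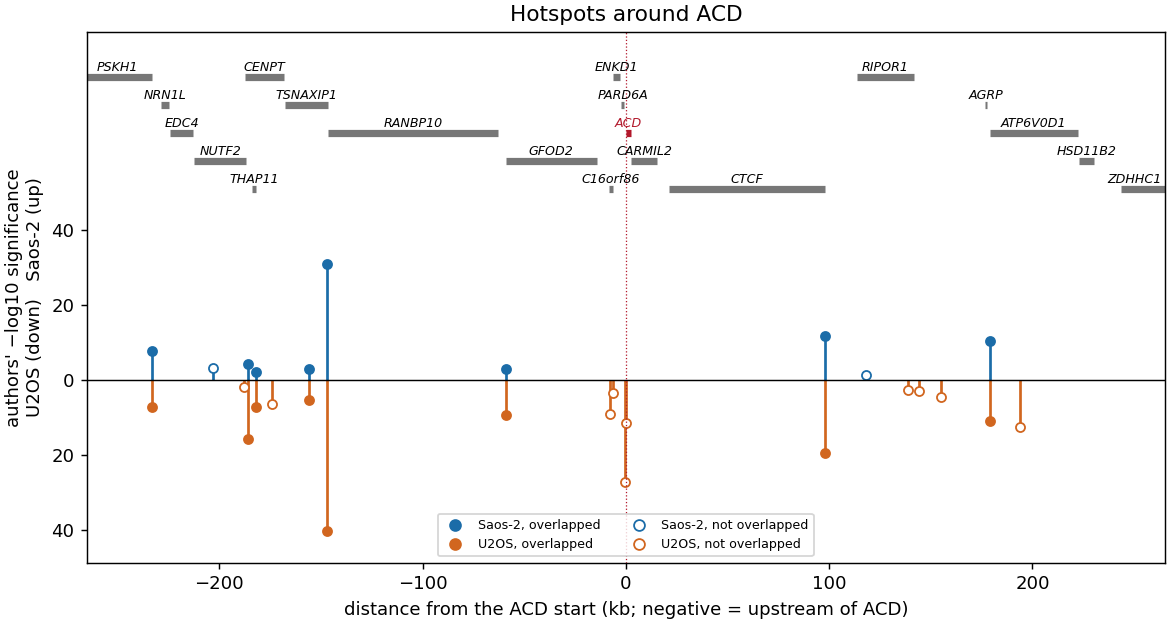
Hotspots within 250 kb of ACD, by distance from the ACD start in kb (horizontal axis). The vertical axis is significance (the authors' value, read as −log10), upward for Saos-2 (blue) and downward for U2OS (orange). Filled circles are overlapped by the other line, open circles are not, and bars are named protein-coding genes. U2OS has 4 hotspots close to the ACD start where Saos-2 has none, while the CTCF and GFOD2 starts on either side carry hotspots of both lines.

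Telomerase was compared next. TERT (gene 7015, chromosome 5, 1253167 to 1295068) encodes the catalytic subunit and is silent in most adult tissues. Neither line had a hotspot within 1 kb or 2.5 kb of its start, inside the gene or within 10 kb of it. The nearest hotspot upstream of the start was 31.1 kb away in Saos-2 and 21.2 kb away in U2OS, and the nearest on the side of the gene body was 120 kb away in Saos-2 and 67.0 kb away in U2OS. The start therefore sat in a hotspot-free stretch of 152 kb in Saos-2 and 88.2 kb in U2OS. Stretches at least as long made up 7.28% of all gaps between neighbouring hotspots in Saos-2 and 13.6% in U2OS, counted by number. Longer gaps hold more bases, so a given position falls in such a stretch more often than these shares. The share of gene starts in such stretches was not computed.

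The TERT neighbourhood, reaching 50 kb to either side, held 5 Saos-2 hotspots and 7 U2OS ones, of which 4 in each line were overlapped by the other. The shared sites lay in a cluster inside CLPTM1L, the neighbour upstream of TERT, 31 to 38 kb from the TERT start. Its first site spanned 582 bp in Saos-2 (significance 10.7) and 484 bp in U2OS (7.51). The next was 1008 bp wide with 12.7 in Saos-2, but 128 bp with 2.49 in U2OS. The third shared site, at 1328151 to 1329082 in Saos-2, was 932 bp wide with 16.1, and its U2OS counterpart was 695 bp with 12.5. All 3 were wider and had a higher significance in Saos-2, although the Saos-2 list as a whole had the lower median. The last shared pair was weak, with 2.33 in Saos-2 and 1.82 in U2OS. Despite fewer hotspots, covered bases around TERT were thus higher in Saos-2, at 2756 against 2273.

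U2OS had 3 hotspots within 50 kb that no Saos-2 hotspot overlapped. The strongest, at 1227736 to 1228052 inside SLC6A18, had a significance of 13.6, above 85.4% of all U2OS hotspots. A second, at 1316286 to 1316554 between TERT and CLPTM1L, had 4.74 and was the hotspot nearest to the TERT start in either line. The third, at 1332797 to 1332975, lay within the CLPTM1L cluster and had 2.41. In Saos-2 the only hotspot of the stretch without a U2OS counterpart was 116 bp wide with 1.74. Within 250 kb the counts were 9 in Saos-2 and 18 in U2OS, and 6 in each line were overlapped, which leaves 3 in Saos-2 alone and 12 in U2OS alone. The CLPTM1L start, just outside the 50 kb, had a weak Saos-2 hotspot (2.08) and none in U2OS.

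**Figure D3:**
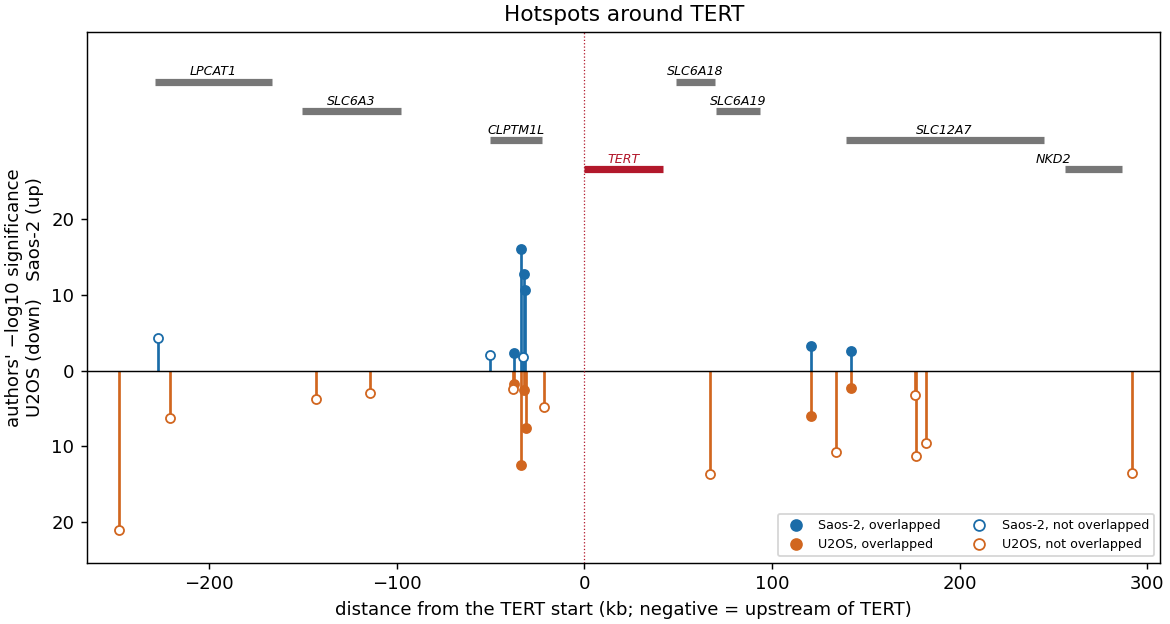
Hotspots within 250 kb of TERT, drawn as for ACD, with distance from the TERT start in kb (negative values upstream). Significance (the authors' value, read as −log10) runs upward for Saos-2 and downward for U2OS. No hotspot of either line falls on TERT, both lines share the CLPTM1L cluster about 31 to 38 kb upstream, and 12 U2OS hotspots against 3 Saos-2 hotspots are not overlapped.

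TERC (gene 7012, chromosome 3, 169764610 to 169765060) is transcribed into the template RNA of telomerase. It had no hotspot within 1 kb in either line. U2OS had 2 narrow hotspots nearby, 86 bp wide with 1.71 at 1.46 kb below the gene and 57 bp wide with 1.53 at 3.84 kb below it, both close to the lowest significance in the list. With windows of 2.5 kb at both gene ends, the first of these placed TERC in the U2OS-only class. That hotspot lies beyond the lower-coordinate end, and TERC has no listed start, so it is not read as a promoter site. Saos-2 had none within 50 kb, which was also the case for 10.8% of protein-coding genes (6.03% in U2OS). The Saos-2 stretch without hotspots around TERC was 748 kb long, and 0.640% of Saos-2 gaps, counted by number, were at least that long. As for TERT, a given position falls in such a gap more often than this share. The adjoining protein-coding genes ACTRT3, MYNN, LRRC34 and LRRIQ4 had no promoter hotspot in either line, so the absence at TERC was shared by its surroundings.

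ATRX (gene 546, chromosome X, 77504880 to 77786216) encodes the remodeller reported to be missing from both lines. Its upper-coordinate end, which is the 5′ end, had a hotspot of nearly equal size and rank in both. It spanned 283 bp in Saos-2 (significance 6.58) and 280 bp in U2OS (6.36), above 58.1% and 50.5% of promoter hotspots. No other hotspot lay inside the gene in either line, over a span of 281337 bp. Among 860 protein-coding genes at least as long, the median number was 6 for Saos-2 and 8 for U2OS. Of these genes, 17.8% had 1 or none in Saos-2, and 4.19% in U2OS. On chromosome X alone, with 38 such genes, these shares were 42.1% and 26.3%. The single hotspot in ATRX was thus less unusual for its chromosome than for its length. The only other hotspot within 50 kb was a U2OS one of 71 bp (2.06), 10.5 kb below the lower end.

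DAXX (gene 1616, chromosome 6, 33318558 to 33322959) is the H3.3 chaperone that works with ATRX. Just outside its upper-coordinate end, which is the 5′ end, Saos-2 had a hotspot of 318 bp (7.69) and U2OS one of 359 bp (5.30), and these overlapped. Outside the lower end both lines had a hotspot at the start of ZBTB22, with 6.76 in Saos-2 and 5.87 in U2OS. All 4 Saos-2 hotspots within 50 kb of DAXX were overlapped by U2OS. U2OS had 2 more, at the starts of WDR46 and PFDN6 (525 bp, 8.57) and beside the DAXX 5′ end (129 bp, 1.81). The shared sites included the common start region of VPS52 and RPS18 and a site between genes 22.2 kb above DAXX.

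Over the surroundings of all 10 genes, Saos-2 had 34 hotspots and U2OS 45. They covered 12455 and 13719 bases of the 1520677 bp examined. The density pooled over these windows was 2.24 hotspots per 100 kb in Saos-2 and 2.96 in U2OS. Gene by gene it ran from 0 (ACD and TERC) to 9.71 (TINF2) in Saos-2. In U2OS it ran from 0.524 (ATRX) to 8.73 (TINF2). Over protein-coding genes with the same flanks, the medians of the densities per gene were 2.56 and 2.97. The pooled values are a different measure, in which the long ATRX window weighs most, and are not set against these medians. In each line 26 hotspots were overlapped by the other, which is 76.5% of the Saos-2 ones (Wilson interval 60.0 to 87.6%) and 57.8% of the U2OS ones (43.3 to 71.0%). The shares over the whole lists were 58.1% and 46.9%. Outside the 10 genes, 14 of the Saos-2 hotspots and 15 of the U2OS ones lay at ends of neighbouring genes, 6 and 9 inside neighbouring genes, and 2 and 8 between genes. At gene ends, those of the 10 genes included, 20 of 24 Saos-2 hotspots (83.3%, interval 64.1 to 93.3%) and 20 of 28 U2OS hotspots (71.4%, 52.9 to 84.7%) were overlapped. Among all promoter hotspots of protein-coding genes the shares were 80.5% and 70.6%, within these intervals. Elsewhere 6 of 10 Saos-2 hotspots (60.0%, interval 31.3 to 83.2%) and 6 of 17 U2OS hotspots (35.3%, 17.3 to 58.7%) were overlapped. The difference between gene ends and elsewhere was not tested.

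**Figure D4:**
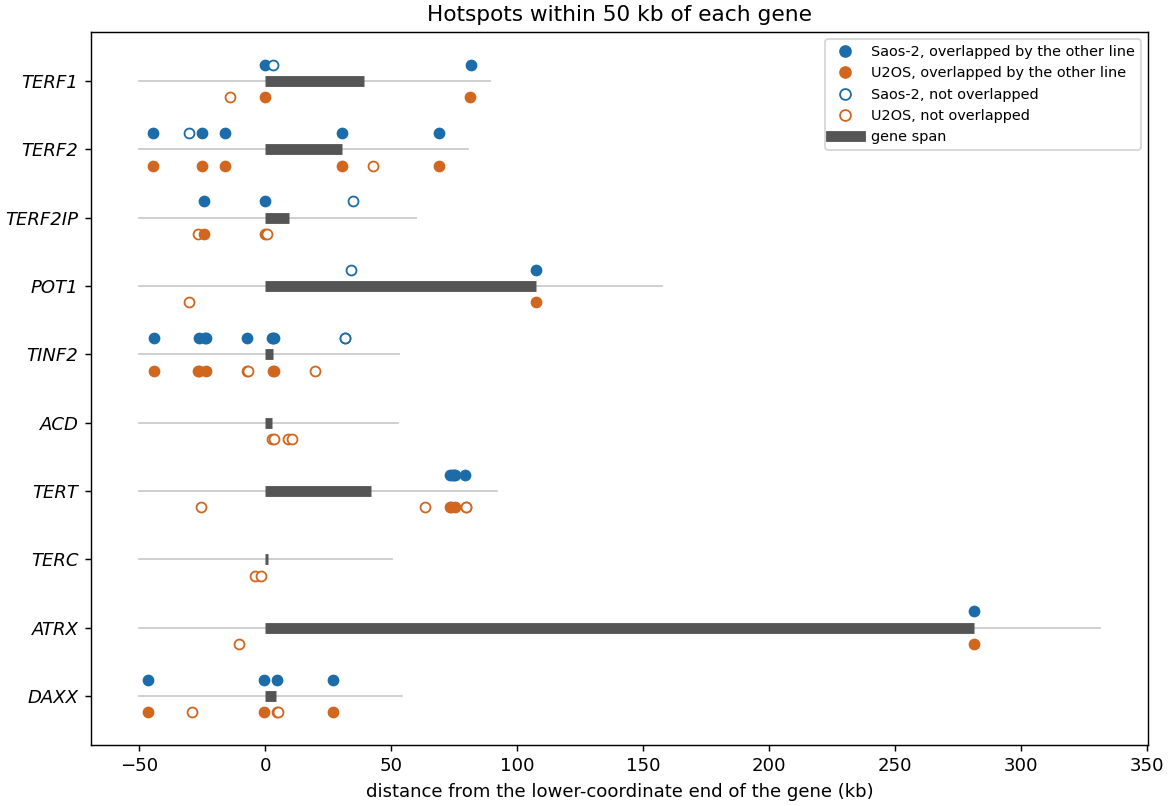
Hotspots within 50 kb of each of the 10 genes, by distance in kb from the lower-coordinate end of the gene; grey bars are gene spans (drawn at least 1 kb long), blue circles above are Saos-2, orange circles below are U2OS, and filled circles are overlapped by the other line. ACD and TERC have U2OS hotspots alone, and the span of ATRX has a single hotspot of each line at its upper end.

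Other genes of telomere maintenance were taken from a list of 52. Of these, 47 (90.4%) were called in both lines, 2 in U2OS alone, 1 in Saos-2 alone and 2 in neither. For the 39 with a RefSeq start in the table the share in both lines was 92.3%, beside 46.3% of all protein-coding genes, and for the other 13, by both gene ends, it was 84.6% beside 42.7%. The list holds many genes used in all dividing cells, and nothing particular to telomeres is read from its share. All 9 listed genes of the telomerase particle and its maturation, a group without TERT and TERC, were accessible in both lines. They included DKC1, which encodes dyskerin and stabilises TERC (11.5 in Saos-2 and 16.4 in U2OS), and NHP2 (20.3 and 21.6). The absence of promoter hotspots was thus seen at TERT and TERC and not at these 9 genes.

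All 6 partners of shelterin had sites in both lines, with DCLRE1B, the Apollo nuclease recruited by TERF2, at 40.0 in Saos-2 and 36.2 in U2OS. ZBTB48, which binds telomere repeats and is also called TZAP, had 31.1 in Saos-2 and 11.0 in U2OS. HMBOX1, another protein that binds telomere repeats, had 15.8 in Saos-2 (1 hotspot) and 84.8 in U2OS (the stronger of 2). It has no listed start, so these values come from both gene ends and may belong to different sites. All 9 H3.3 partners also had sites in both, among them SETDB1, a histone H3K9 methyltransferase, at 26.8 and 26.0.

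The exceptions lay in the other groups. CTC1, a subunit of the CST complex that ends telomere synthesis, had 5 Saos-2 hotspots at its ends, the strongest with 6.83, and none in U2OS. PRIM1, the primase subunit, had 2 U2OS hotspots, the stronger with 7.17, and none in Saos-2. Of 20 ALT recombination and repair genes, 17 had sites in both lines, and RAD51D had a U2OS site alone with the marginal value of 1.47. FANCD2, of the Fanconi anaemia pathway, and ZNF827, which recruits a chromatin complex to ALT telomeres, had none in either line. BLM, the helicase that unwinds recombination intermediates, had 17.6 in Saos-2 and 53.5 in U2OS, and TOP3A had 29.1 and 46.4.

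**Figure D5:**
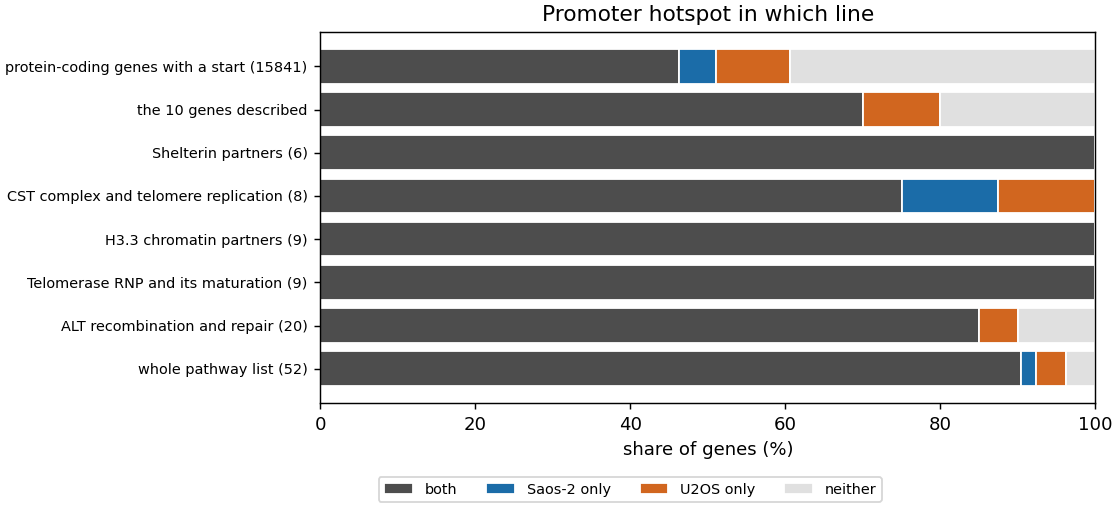
Share of genes (%, horizontal axis) whose promoter was called in both lines, 1 line alone or neither, for protein-coding genes with a RefSeq start, the 10 genes described and the groups of the pathway list (gene numbers in parentheses). In the whole pathway list 90.4% were in both lines, beside 46.3% of protein-coding genes with a start. Pathway genes and members without a listed start were scored by both gene ends, for which the share over all protein-coding genes is 42.7%.

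The labelled cell type was compared with promoter hotspots of marker genes. Among mesenchymal and osteoblast genes, RUNX2 (12.5 in Saos-2 and 1.59 in U2OS), SPARC (1.71 and 2.28) and VIM (3.7 and 4.21) had one in both lines. ALPL had one in Saos-2 only (2.91) and COL1A1 in U2OS only (2.22), while SP7 and COL1A2 had none in either. The lowest significance in either list was 1.30. Over all protein-coding genes, 46.3% by starts and 42.7% by both ends were called in both lines, and 39.3% and 41.7% in neither. Of 8 genes of blood, epithelium, liver and nerve, 5 had none in either line, CD3E and SYP had one in both and RBFOX3 in U2OS only. Promoter hotspots therefore separated these marker groups incompletely, and they do not measure expression.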

How the data were processed

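DNase-seq hotspots of Saos-2 and U2OS (1 library each) were used as deposited. Per the submitters' processing notes, Trimmomatic 0.38 and BWA 0.7.15 were used on hg38; a false discovery rate of 0.05 stands in the names of the files. The hotspot caller, its version and the treatment of duplicates are not given in the sources used here. The deposited value of each hotspot was taken as a −log10 significance, because it runs from 1.30 to 100; the deposited score is 10 times that value, rounded, and was not used further. Read depth is unknown.

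Gene spans and starts came from RefSeq tables (GRCh38.p14); all 10 symbols and all 52 of the pathway list matched. For genes without a listed start, both gene ends were used, as set for this case. The 5′ ends of those genes are named from general knowledge. Hotspots within a gene span plus 50 kb were listed, and overlap meant at least 1 bp. Intervals are Wilson 95% intervals. The members and lists were chosen with earlier results of these data known. All 10 members, and every pathway gene not called in both lines, were to be named, with the 2 highest significances per line; NHP2, DKC1, SETDB1 and TOP3A were named after their values were seen. The marker check is given in part; 1 marker is not reported here. Overlap calls were tested on simulated data. Alternatives were other windows, equal list lengths, the top 50% of each list, merging of hotspots less than 150 bp apart and 50% overlap. Python 3.11.15, pandas 2.3.3 and scipy 1.17.1 were used.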

Additional observations from a re-analysis of the deposited data

How the results depend on the processing

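No paired analysis was possible because each line was represented by 1 library, and no replicate could be left out. Of 98 values recomputed under an alternative, 73 stayed within 1.5-fold of the value above (or, for shares, within its Wilson interval); the cause of the other changes was not tested except where the window or list length sets them. Promoter windows of 2.5 kb gave 2 of the 10 genes in U2OS only and 1 in neither, through TERC, and left 1 pathway gene in neither. The RefSeq window gave 5 pathway genes in U2OS only. Equal list lengths gave 1 pathway gene in U2OS only, and the top 50% of each list gave 5 in U2OS alone, 4 in Saos-2 alone and 4 in neither. Flanks of 10 kb held 13 Saos-2 and 19 U2OS hotspots (4180 and 5893 covered bases), and flanks of 100 kb held 61 and 76 (20468 and 24045 bases). The top 50% left 26 U2OS hotspots, of which 73.1% were overlapped. Around TERT there were 0 and 0 hotspots within 10 kb, 9 and 18 within 250 kb, and 3 and 4 in the top 50% for Saos-2 and U2OS; merging left 2 in Saos-2. The values without ACD and TERC, chosen after seeing the data, did not move past these limits. Unknown depth limits every absence: a missing hotspot is a site not called at this depth.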

Other observations

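Some values around these genes fall outside the comparisons above and were singled out after they were seen. Beyond the 5′ end of POT1, the next Saos-2 hotspot was 1760 kb from the POT1 start, whereas the next U2OS hotspot was 63.0 kb from it. A gap at least as long as the Saos-2 one occurred 48 times among 51532 Saos-2 gaps, and 5 U2OS hotspots lay at least partly within it. The promoter hotspot at the POT1 end of this gap is the strongest of those of the 10 genes in Saos-2.

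The other 5 strong U2OS promoter hotspots without Saos-2 overlap lay at the starts of VSIR (27.1), L3MBTL1 (40.1), ADAMTS12 (29.3) and SRI (50.7) and at the upper-coordinate end of ZC3H3 (36.6). ACD was the only gene of telomere maintenance, as listed here, at these 6 sites. The site near ACD began 409 bp upstream of it and also covers the facing end of PARD6A.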
